A study of Homo sapiens with 8 samples.

Results

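Glycolysis and pyruvate metabolism was examined as a set of 38 genes listed by symbol, with earlier results of these data known. Of these, 37 were among the 13771 genes of the expression table. Only SLC2A3 had no row, and it was not analysed here. The cells were MCF10A, a human breast epithelial line that does not form tumors, and DCIS.COM, a related line that models ductal carcinoma in situ. Each line had been transduced with a lentiviral pCDH vector carrying the long noncoding RNA HOTAIR or with the same vector left empty (pCDH-empty), and all cells were selected with 10 µg/ml puromycin and harvested before confluence. RNA-seq was available for 2 libraries of each of the 4 groups, 8 in all. The labels do not say whether the 2 libraries came from separate cultures, so p-values measure only the spread between these libraries, which may be technical. Both lines were grown with horse serum, MCF10A also with EGF, hydrocortisone, insulin and cholera toxin, so cell line and medium cannot be told apart. In both lines the HOTAIR vector was compared with the empty vector from stably transduced, puromycin-selected cells, and the labels do not describe them as clones.

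Glycolysis splits glucose into pyruvate through a chain of cytosolic enzymes, most of which exist as isozymes from separate genes. Pyruvate then either becomes lactate, through lactate dehydrogenase, and leaves the cell through monocarboxylate transporters, or enters mitochondria for oxidation by the pyruvate dehydrogenase complex, which pyruvate dehydrogenase kinases switch off. In breast epithelium and in tumors several of these genes are known targets of hypoxia-inducible factors (HIF), which bind an ACGTG core in promoters.

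Recovered depth ran from 19306864 to 34884841 reads per library, and the 37 genes together took 2.31% and 2.33% of the reads in MCF10A pCDH-empty, 2.58% and 2.63% in MCF10A pCDH-HOTAIR and 2.55% to 2.62% in the 4 DCIS.COM libraries. HOTAIR had 45 and 40 reads with the empty vector and 4614 and 4827 with the HOTAIR vector in MCF10A, and 119 and 140 against 7166 and 6385 in DCIS.COM, so that each group was on the side its label gives. All 10 epithelial markers were in the table, with a summed level of 11756 to 13138 CPM (reads scaled to a common library size) in MCF10A and 7910 to 9403 CPM in DCIS.COM. Of other cell types, 0 of 4 fibroblast markers, 0 of 3 adipocyte markers, 1 of 4 endothelial markers (PECAM1) and 2 of 5 leukocyte markers (CD68 and CD14) were in the table, and PTPRC, CD3E and LYZ were not. CD68 and CD14 together had 41.4 to 47.1 CPM in MCF10A and 5.63 to 6.55 CPM in DCIS.COM, and PECAM1 had 1.70 to 2.69 and 10.1 to 13.3 CPM, and the part of these line differences in those below was not tested. The 2 DCIS.COM pCDH-empty libraries stood further apart than other pairs, with a median difference of 0.200 on the log2 scale over the 37 genes against 0.025 to 0.057 in the other 3 groups. The signal recognition particle RNAs RN7SL1 and RN7SL2 took 18.9% of the reads in DCIS.COM pCDH-empty 1 and 12.5% in DCIS.COM pCDH-empty 2. In MCF10A they took 13.7% and 15.0% with the empty vector and 11.1% and 12.5% with HOTAIR, and the part of this shift in the values below was not tested.

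Promoter sequences are shown for the 4 genes whose HOTAIR libraries differed from the empty-vector libraries at an unadjusted p under 0.05 in both lines (ALDOC, PFKFB4, PGK1 and PDK1) and for the 2 genes with the highest fold change in MCF10A (PFKFB3 and ENO2). Each is the 250 bases before a RefSeq transcription start on GRCh38.p14, 5′ to 3′ on the strand of the gene, with ACGTG or its reverse complement CACGT in capitals, so that a palindromic CACGTG holds the motif on both strands. ALDOC lies at chr17:28576896-28577145 on the minus strand, PFKFB4 at chr3:48556804-48557053 on the minus strand, PGK1 at chrX:78103998-78104247, PDK1 at chr2:172555840-172556089, PFKFB3 at chr10:6202682-6202931 and ENO2 at chr12:6914330-6914579, the last 4 on the plus strand. PDK1 and PFKFB3 have a further start upstream whose window held no ACGTG, and the downstream start is shown.
ALDOC: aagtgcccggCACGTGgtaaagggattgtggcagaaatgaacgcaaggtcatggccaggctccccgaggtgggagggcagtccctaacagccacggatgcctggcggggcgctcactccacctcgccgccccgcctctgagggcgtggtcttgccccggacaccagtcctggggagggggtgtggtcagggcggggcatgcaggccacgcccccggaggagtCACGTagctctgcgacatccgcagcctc
PFKFB4: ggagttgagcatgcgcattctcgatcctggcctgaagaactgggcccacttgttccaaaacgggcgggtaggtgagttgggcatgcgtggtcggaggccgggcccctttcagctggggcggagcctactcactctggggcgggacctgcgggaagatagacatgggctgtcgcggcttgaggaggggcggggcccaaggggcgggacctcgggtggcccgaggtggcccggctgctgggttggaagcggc
PGK1: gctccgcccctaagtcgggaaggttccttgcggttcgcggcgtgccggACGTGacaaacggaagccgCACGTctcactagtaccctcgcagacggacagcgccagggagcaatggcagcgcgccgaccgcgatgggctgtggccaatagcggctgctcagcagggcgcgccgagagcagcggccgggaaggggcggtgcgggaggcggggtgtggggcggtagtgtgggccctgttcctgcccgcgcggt
PDK1: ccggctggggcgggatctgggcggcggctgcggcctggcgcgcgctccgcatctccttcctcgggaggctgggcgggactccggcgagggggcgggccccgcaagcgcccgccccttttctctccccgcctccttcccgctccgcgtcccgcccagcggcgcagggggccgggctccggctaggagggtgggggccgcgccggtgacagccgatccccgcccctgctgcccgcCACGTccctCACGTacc
PFKFB3: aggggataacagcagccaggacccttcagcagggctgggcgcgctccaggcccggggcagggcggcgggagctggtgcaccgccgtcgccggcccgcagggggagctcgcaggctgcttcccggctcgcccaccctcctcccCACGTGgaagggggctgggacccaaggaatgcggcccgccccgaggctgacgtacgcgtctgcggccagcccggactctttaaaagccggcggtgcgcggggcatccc
ENO2: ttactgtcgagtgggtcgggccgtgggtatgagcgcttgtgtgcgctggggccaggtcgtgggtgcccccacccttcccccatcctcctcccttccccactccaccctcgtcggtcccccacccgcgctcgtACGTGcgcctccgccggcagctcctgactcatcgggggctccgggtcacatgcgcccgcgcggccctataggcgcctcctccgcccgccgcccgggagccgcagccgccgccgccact
All but PFKFB4 held the motif in the window shown, and for PDK1 and PFKFB3 the window shown is the one with a match. Counted by gene, 21 of the 35 genes of the set with listed promoters held ACGTG in any of them. The genes shown were picked by their HOTAIR comparisons. Whether they hold the motif more often than the rest of the set was not tested. Of 67 promoters listed for 35 of the genes, 24 (35.8%) held ACGTG on either strand, against 18.5% of all 35116 promoters and 22.1% of the 15340 promoters of genes in the table. The related GCGTG was in 37.3%, 32.2% and 42.9% of these 3 sets, and the median GC content was 68.4%, 58.0% and 64.2%. Windows of neighbouring starts overlap, and a match describes the letters only.

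The first comparison asked how HOTAIR overexpression moved these genes in MCF10A. No gene of the 37 was called, a call being a limma adjusted p under 0.05 (Benjamini-Hochberg over all 13771 genes) with a fold change of at least 1.5, and 3 genes of the whole table were (0.0218%). At an unadjusted p under 0.05, 9 of the 37 were higher with HOTAIR, against 4.41% of all genes, and 0 were lower, against 2.88%. These 9 were the glucose transporter SLC2A1, HK2, ALDOC, PFKFB3, PFKFB4, PGK1, ENO2, PDK1 and glycogen synthase GYS1. Both HOTAIR libraries lay above both empty-vector libraries for 25 of 37 genes (22.5% of all genes) and below them for 4 (24.8% of all genes). The fold change was above 0 on the log2 scale for 28 of 37 genes, and the median was 0.13 against -0.01 over all genes. No test was made of the list itself. The spread of the DCIS.COM pCDH-empty libraries enters every test, so the number at an unadjusted p under 0.05 depends on it. With either MCF10A pCDH-empty or either MCF10A pCDH-HOTAIR library left out, 27 to 30 of 37 genes lay above 0. The median was then 0.13 in each case, against -0.0063 to -0.0034 over all genes.

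**Figure D1:**
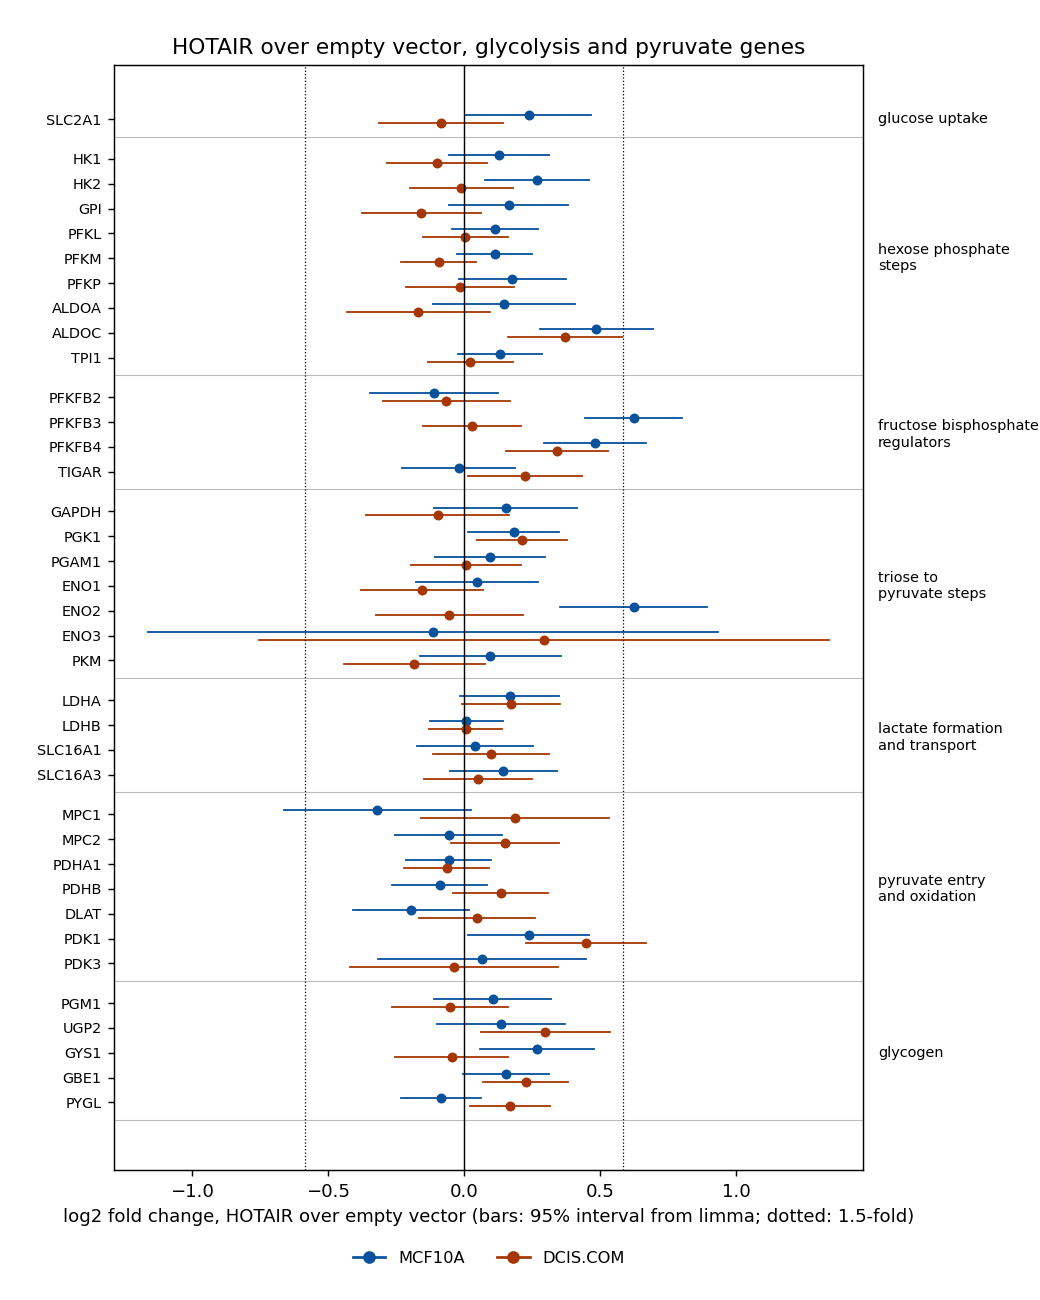
Log2 fold change of HOTAIR over empty vector for the 37 genes, ordered by role, in MCF10A (blue) and DCIS.COM (brown), with bars for the 95% interval from limma and dotted lines at a fold change of 1.5. PFKFB3 and ENO2 lie at 0.62 in MCF10A and at 0.03 and -0.05 in DCIS.COM, while ALDOC, PFKFB4, PGK1 and PDK1 lie above 0 in both lines.

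Among the regulators of phosphofructokinase, PFKFB3 had the smallest p-value of the set. PFKFB3 makes fructose 2,6-bisphosphate, the strongest activator of phosphofructokinase, and lies on chromosome 10 from 6186897 to 6296607 (GRCh37, plus strand). Its levels in MCF10A were 5.73 and 5.60 log2 CPM with the empty vector and 6.33 and 6.26 with HOTAIR. The groups did not overlap, and the log2 fold change was 0.62 ± 0.077 (SE), a 1.54-fold difference with a limma adjusted p of 0.0899. It passed the adjusted threshold without DCIS.COM pCDH-empty 1 (adjusted p = 0.00374) or 2 (0.00373), and after GC correction the adjusted p was 0.0216 at a log2 fold change of 0.58, just short of the fold threshold. PFKFB4, a related bifunctional enzyme on chromosome 3, had 4.37 and 4.45 log2 CPM with the empty vector and 4.89 in both HOTAIR libraries. Its log2 fold change was 0.48 ± 0.081 (limma adjusted p = 0.155). The 2 other members of this group had values near or below 0, with -0.11 ± 0.10 for PFKFB2 and -0.02 ± 0.090 for TIGAR, a phosphatase that removes fructose 2,6-bisphosphate. PFKFB3 and ENO2 also stand in the study's own table of genes that differed in MCF10A. The study tested with edgeR, whereas limma with all 8 libraries called neither here. Both were known before and are not independent evidence for the set.

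The hexose phosphate steps run from hexokinase to triose phosphate isomerase. All 9 of their genes had both HOTAIR libraries above both empty-vector libraries, against 22.5% of all genes. Their log2 fold changes ran from 0.11 to 0.49 (median 0.15). All 9 also stayed above 0 after median centring, quantile normalization, GC or length correction, log2(CPM + 1) and limma-voom. The other alternative fits could not turn the direction, since they keep the fold change or drop 1 library from groups that did not overlap. ALDOC, the aldolase isozyme best known from brain, had 3.53 and 3.59 log2 CPM with the empty vector and 4.03 and 4.06 with HOTAIR. The log2 fold change was 0.49 ± 0.090 (limma adjusted p = 0.215). RSKR, which overlaps ALDOC on the same strand, had a log2 fold change of 0.83 ± 0.30 (adjusted p = 0.586) from 8 to 17 reads per MCF10A library, and its part in the value of ALDOC was not tested. HK2, the inducible hexokinase, had 6.04 and 6.20 log2 CPM against 6.47 and 6.30, a log2 fold change of 0.27 ± 0.082 (adjusted p = 0.485). The other 7, among them the phosphofructokinase subunits PFKL, PFKM and PFKP and the main aldolase ALDOA, lay between 0.11 and 0.18.

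In the steps from triose to pyruvate, 6 of 7 genes had separate and higher HOTAIR libraries in MCF10A, against 22.5% of all genes. ENO2, the enolase isozyme of neurons, had 2.06 and 1.95 log2 CPM with the empty vector and 2.59 and 2.67 with HOTAIR. These values rest on at most 128 reads per library, and the log2 fold change was 0.62 ± 0.12 (limma adjusted p = 0.215). ENO2 passed the threshold without DCIS.COM pCDH-empty 1 (adjusted p = 0.0422) or 2 (adjusted p = 0.0424). It lies on chromosome 12 and overlaps LRRC23 on the same strand, which had a log2 fold change of 0.17 ± 0.18 from 73 to 110 reads per library. PGK1, which makes the first ATP of the pathway, had 10.22 and 10.23 log2 CPM against 10.42 and 10.40. Its log2 fold change was 0.18 ± 0.072 (limma adjusted p = 0.617), and 0.05 after quantile normalization. ATP7A, which overlaps PGK1 on the same strand, had -0.13 ± 0.12. PGAM4, which overlaps it on the opposite strand, had 0.16 ± 0.16 from 1596 to 2459 reads per MCF10A library. The part of either in the value of PGK1 was not tested. GAPDH (0.15), PGAM1 (0.10), PKM (0.10) and ENO1 (0.05) lay at smaller values, and ENO3, the muscle enolase, had only 13 to 44 reads per library over all groups.

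The genes past pyruvate were split in MCF10A. The 4 genes of lactate formation and transport had log2 fold changes of 0.17 for LDHA, 0.01 for LDHB, 0.04 for the lactate transporter SLC16A1 (MCT1) and 0.14 for SLC16A3 (MCT4), and none passed an unadjusted p of 0.05. Of the 7 genes of mitochondrial pyruvate entry and oxidation, 5 lay below 0. The pyruvate carrier subunit MPC1 (-0.32), the pyruvate dehydrogenase subunit PDHB (-0.09) and the acetyltransferase DLAT (-0.19) had both HOTAIR libraries below both empty-vector libraries. The limma adjusted p-values were 0.730, 0.907 and 0.735 in this order, and 24.8% of all genes lay below in the same way. PDK1, the kinase that inactivates this complex, had 5.48 and 5.55 log2 CPM with the empty vector and 5.70 and 5.79 with HOTAIR. The log2 fold change was 0.24 ± 0.096 (adjusted p = 0.634). Its isozyme PDK3 had 0.07 ± 0.17 and the pyruvate dehydrogenase subunit PDHA1 had -0.06 ± 0.067. Upstream, SLC2A1 (GLUT1) had 8.64 and 8.67 log2 CPM against 8.88 and 8.91, a log2 fold change of 0.24 ± 0.099 (adjusted p = 0.653). Of the 5 glycogen genes, GYS1 had 0.27 ± 0.090 (adjusted p = 0.538), phosphoglucomutase PGM1 0.11 ± 0.093 and glycogen phosphorylase PYGL -0.08 ± 0.063.

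In DCIS.COM, the same comparison called 0 of the 37 genes, against 12 genes of the whole table (0.0871%). At an unadjusted p under 0.05, 8 genes were higher with HOTAIR (9.08% of all genes) and 0 were lower (8.41% of all genes). These were ALDOC, PFKFB4, TIGAR, PGK1, PDK1, the glycogen genes UGP2 and GBE1, and PYGL. The absence of lower genes was not stable. Some were lower at this threshold after quantile normalization and without DCIS.COM pCDH-empty 2. Both HOTAIR libraries lay above both empty-vector libraries for 11 genes (24.7% of all genes) and below them for 6 (24.5% of all genes). The median log2 fold change was 0.01, as it was over all genes, with 21 of 37 above 0. These directions turned on single libraries for some genes. Without DCIS.COM pCDH-empty 1 or 2, 23 or 18 of 37 lay above 0, at medians of 0.05 or -0.01 against 0.00 over all genes in both. Without DCIS.COM pCDH-HOTAIR 1 or 2 these were 20 or 21, at medians of 0.02 or 0.01 against 0.01 over all genes in both.

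PDK1 had the smallest p-value of the set in DCIS.COM. Its levels were 5.25 and 5.52 log2 CPM with the empty vector and 5.86 and 5.82 with HOTAIR. The log2 fold change was 0.45 ± 0.096 (limma adjusted p = 0.154). The empty-vector libraries differed from each other by more than the HOTAIR pair did, and the groups did not overlap. ALDOC had 5.15 and 4.97 log2 CPM against 5.48 and 5.38, a log2 fold change of 0.37 ± 0.090 (adjusted p = 0.186). PFKFB4 had 4.71 and 4.66 against 5.09 and 4.95, a log2 fold change of 0.34 ± 0.081 (adjusted p = 0.181). After GC correction the adjusted p was 0.0294 for ALDOC and 0.0489 for PFKFB4, with fold changes still under 1.5.

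Among the glycogen genes in DCIS.COM, GBE1, the glycogen branching enzyme, had 6.55 and 6.70 log2 CPM against 6.85 and 6.84, a log2 fold change of 0.23 ± 0.068 (adjusted p = 0.229). UGP2, which makes the UDP-glucose used for glycogen, had 8.59 and 8.92 against 9.07 and 9.04, a log2 fold change of 0.30 ± 0.10 (adjusted p = 0.246). PYGL, which breaks glycogen down, had 0.17 ± 0.063 (adjusted p = 0.264). PGK1 in the lower pathway had 9.47 and 9.62 log2 CPM against 9.76 and 9.75, a log2 fold change of 0.21 ± 0.072 (adjusted p = 0.246), and TIGAR had 0.22 ± 0.090 (adjusted p = 0.274). For these 5 genes the HOTAIR libraries were above the empty-vector libraries. Their sizes turned on the empty-vector pair, since without DCIS.COM pCDH-empty 1 or 2 the value was 0.14 or 0.46 for UGP2, 0.13 or 0.32 for TIGAR, 0.14 or 0.29 for PGK1 and 0.15 or 0.30 for GBE1. In contrast to MCF10A, PFKFB3 had 5.59 and 5.48 log2 CPM against 5.54 and 5.60 and ENO2 had 3.22 and 3.20 against 3.25 and 3.06, and the groups overlapped for both. The abundant enzymes GAPDH (-0.10), PKM (-0.18), ALDOA (-0.17) and ENO1 (-0.15) had no unadjusted p under 0.05, and without DCIS.COM pCDH-empty 1 they were at 0.04, -0.03, 0.01 and -0.02.

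The MCF10A and DCIS.COM comparisons share no libraries, but each gene has 1 estimate of spread for both, so their p-values are not independent. ALDOC, PFKFB4, PGK1 and PDK1 were the 4 of 37 genes with an unadjusted p under 0.05 in both, all higher with HOTAIR, against 103 genes (0.748%) of the whole table. LDHA, UGP2 and GBE1 joined these 4 in having separate and higher HOTAIR libraries in both lines, 7 genes in all against 838 genes (6.09%) of the table. LDHA, which turns pyruvate into lactate, had 11.95 and 12.01 log2 CPM against 12.13 and 12.16 in MCF10A and 10.86 and 10.87 against 11.07 and 11.00 in DCIS.COM. The log2 fold change was 0.17 ± 0.078 in each line, at adjusted p-values of 0.730 and 0.297. A further 14 genes, SLC2A1, HK2, GAPDH and PKM among them, lay above 0 in MCF10A and below 0 in DCIS.COM, and 7, MPC1, MPC2, PDHB and PYGL among them, the other way. These counts turned on the DCIS.COM pCDH-empty pair, at 9 and 4 without replicate 1 and 17 and 7 without replicate 2. Without replicate 1 the DCIS.COM value was 0.08 for SLC2A1, 0.04 for GAPDH and -0.04 for MPC1.

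Whether the effect of HOTAIR differed between the lines was tested by the interaction of vector and line. None of the 37 genes passed an adjusted p of 0.05, and 6 genes of the table did (0.0436%). How many of the 37 passed changed when a library was left out. At an unadjusted p under 0.05 there were 8 of the 37, against 10.5% of all genes. PFKFB3 had a difference of -0.59 ± 0.11 (DCIS.COM minus MCF10A, limma adjusted p = 0.192) and ENO2 one of -0.68 ± 0.17 (adjusted p = 0.307). MPC1 had 0.51 ± 0.21 (adjusted p = 0.465) and PYGL 0.25 ± 0.089 (adjusted p = 0.430), and the other 4 were HK2, GPI, PFKM and GYS1, with differences from -0.32 to -0.21. For all 9 hexose phosphate genes the difference was below 0, with a median of -0.21 against 0.01 over all genes. For ALDOC, PFKFB4, PGK1 and PDK1 the 95% intervals of the difference ran from -0.41 to 0.18, -0.40 to 0.12, -0.21 to 0.27 and -0.10 to 0.52. Some of these differences turned on the DCIS.COM pCDH-empty pair. Without replicate 1 or 2 the DCIS.COM value was -0.04 or 0.42 for MPC1 and -0.01 or -0.30 for GPI. For PFKFB3 it was 0.085 or -0.025, and for ENO2 -0.043 or -0.065.

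The lines themselves differed far more than the vectors. With the empty vector, 17 of 37 genes were called between DCIS.COM and MCF10A, 10 higher and 7 lower in DCIS.COM, a share of 45.9% against 46.3% of all genes. The comparison with the HOTAIR vector used other libraries but the same estimate of spread for each gene. There 20 were called, 12 higher and 8 lower, 54.1% against 43.7% of all genes. Of these, 13 (35.1% of the 37) were called in both, each in the same direction, against 5283 genes (38.4%) of the whole table. Under the 18 alternative fits 14 of the 17 and 18 of the 20 stayed called and no direction changed, the exceptions being HK1, TIGAR and GAPDH with the empty vector and PGK1 and MPC2 with the HOTAIR vector.

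**Figure D2:**
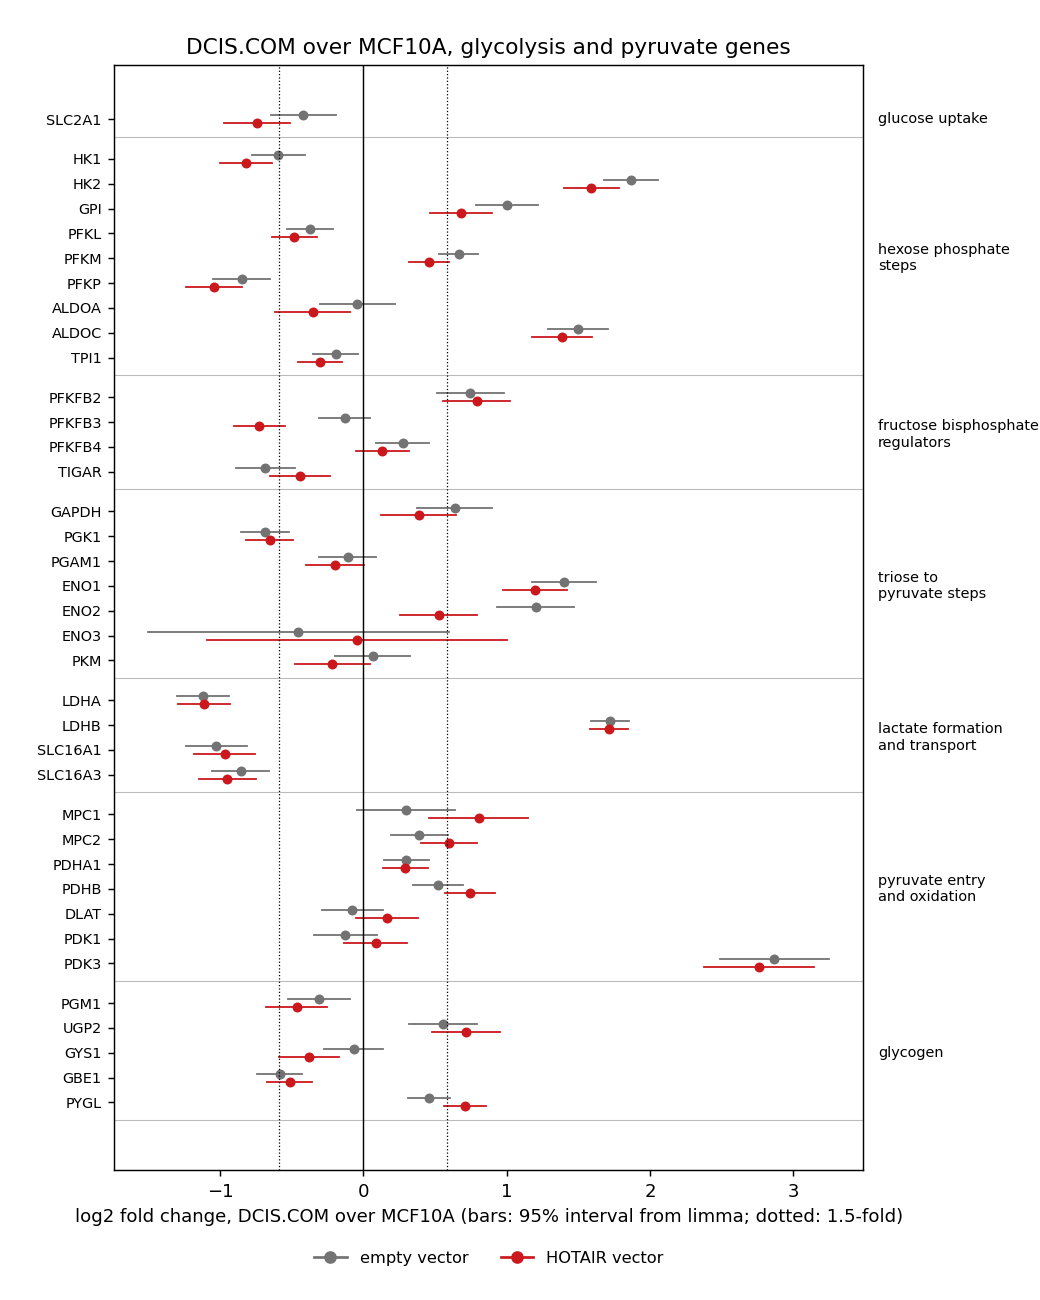
Log2 fold change of DCIS.COM over MCF10A for the 37 genes, ordered by role, with the empty vector (grey) and with the HOTAIR vector (red), with bars for the 95% interval from limma and dotted lines at a fold change of 1.5. PDK3, HK2, LDHB, ALDOC and ENO1 lie above 1 and LDHA lies below -1 with both vectors.

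Several isozymes of 1 step differed between the lines, HK2 and HK1 and also LDHB and LDHA in opposite directions. PDK3 had 3.28 and 3.73 log2 CPM in MCF10A pCDH-empty, 3.53 and 3.61 in MCF10A pCDH-HOTAIR, 6.18 and 6.57 in DCIS.COM pCDH-empty and 6.38 and 6.30 in DCIS.COM pCDH-HOTAIR. It was 7.30-fold higher in DCIS.COM with the empty vector (log2 fold change 2.87 ± 0.17, limma adjusted p = 1.76e-06) and 6.79-fold with the HOTAIR vector. Its isozyme PDK1 was not called in either, at -0.13 ± 0.096 and 0.09 ± 0.096. HK2 was 3.65-fold higher in DCIS.COM with the empty vector (log2 fold change 1.87 ± 0.082, adjusted p = 3.82e-07), with 6.04 to 6.47 log2 CPM in the 4 MCF10A libraries and 7.95 to 8.02 in the 4 DCIS.COM libraries. HK1, the hexokinase of most tissues, fell by 0.59 ± 0.080 on the log2 scale (adjusted p = 0.000258). LDHB, the lactate dehydrogenase subunit of heart, was 3.29-fold higher (log2 fold change 1.72 ± 0.058, adjusted p = 9.97e-08), from 7.92 to 7.96 log2 CPM in MCF10A to 9.64 to 9.68 in DCIS.COM. LDHA, the subunit of muscle, fell by 1.12 ± 0.078 on the log2 scale (adjusted p = 5.43e-06), from 11.95 to 12.16 in MCF10A to 10.86 to 11.07 in DCIS.COM. No library of either line overlapped the other line for these 5 called genes.

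On a scale that divides by exon length (log2 RPKM, from the log2 CPM and GENCODE exon lengths), LDHA exceeded LDHB by 2.98 and 3.07 in the MCF10A pCDH-empty libraries and by 0.17 and 0.21 in the DCIS.COM pCDH-empty libraries. The difference of level was 3.18 ± 0.030 (SD, n = 2) in MCF10A pCDH-HOTAIR and 0.35 ± 0.073 in DCIS.COM pCDH-HOTAIR. HK2 minus HK1 turned sign on this scale, from -2.17 ± 0.11 and -2.03 ± 0.056 in MCF10A with the empty and the HOTAIR vector to 0.29 ± 0.18 and 0.38 ± 0.011 in DCIS.COM. The lengths merge all annotated exons of a gene, and where 0 lies between 2 genes depends on them. On log2 CPM HK2 and HK1 had 7.96 and 8.02 in DCIS.COM pCDH-empty 1 and 8.02 and 7.82 in DCIS.COM pCDH-empty 2. In both DCIS.COM pCDH-HOTAIR libraries HK2 was above HK1 on log2 CPM. PDK1 minus PDK3 turned the other way, from 2.24 ± 0.27 and 2.41 ± 0.0072 to -0.75 ± 0.082 and -0.27 ± 0.027. PFKP minus PFKM narrowed from 3.36 ± 0.019 to 1.84 ± 0.15 with the empty vector, and ALDOA minus ALDOC from 6.52 ± 0.038 to 4.98 ± 0.12. Other pairs stood close in both lines, with ENO1 minus ENO2 at 7.82 ± 0.060 and 8.02 ± 0.18 and SLC16A3 minus SLC16A1 at -0.32 ± 0.026 and -0.15 ± 0.029 with the empty vector. GAPDH had the highest level of the 37 in every group on the scale by length, and LDHA stood second in MCF10A and ENO1 in DCIS.COM. On log2 CPM PKM stood above ENO1 in DCIS.COM, at means of 11.97 against 11.51 with the empty vector. These differences of level are descriptions and were not tested. GAPDH, PGAM1, LDHA, PKM, TPI1, ENO1, LDHB, ALDOA and PGK1 have pseudogene copies in the annotation, 65 for GAPDH and 2 to 13 for the others, and HK2, SLC16A1, PDHA1 and PDK1 have 1 each, so their reads are less certain.

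Along the rest of the pathway, the enolases ENO1 (log2 fold change 1.40 ± 0.097, adjusted p = 4.96e-06) and ENO2 (1.20 ± 0.12, 3.90e-05), the aldolase ALDOC (1.501 ± 0.090, 2.23e-06), the isomerase GPI (1.002 ± 0.094, 3.09e-05), PFKFB2 (0.75 ± 0.10, 0.000273), PFKM (0.67 ± 0.059, 2.27e-05) and GAPDH (0.64 ± 0.11, 0.00130) were called higher in DCIS.COM with the empty vector. PFKP (-0.85 ± 0.085, adjusted p = 4.62e-05), PGK1 (-0.68 ± 0.072, 6.17e-05) and TIGAR (-0.68 ± 0.090, 0.000227) were called lower. Both lactate transporters were lower in DCIS.COM, SLC16A1 by a log2 fold change of -1.03 ± 0.092 (adjusted p = 2.36e-05) and SLC16A3 by -0.86 ± 0.086 (adjusted p = 4.46e-05). The 4 genes of lactate formation and transport were thus all called, 1 higher and 3 lower, with both vectors. GBE1 (-0.58 ± 0.068) had an adjusted p of 0.000109 and lay just under the fold threshold.

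With the HOTAIR vector, 7 genes were called that had not been called with the empty vector. SLC2A1 (-0.74 ± 0.099 against -0.42 ± 0.099, adjusted p = 0.000258 with HOTAIR) and PFKFB3 (-0.72 ± 0.077 against -0.13 ± 0.077, 6.82e-05) were lower in DCIS.COM. MPC1 (0.80 ± 0.15 against 0.30 ± 0.15, adjusted p = 0.00168 with HOTAIR), MPC2 (0.60 ± 0.085 against 0.39 ± 0.085, 0.000379), PDHB (0.75 ± 0.076 against 0.52 ± 0.076, 5.04e-05), UGP2 (0.72 ± 0.10 against 0.55 ± 0.10, 0.000372) and PYGL (0.71 ± 0.063 against 0.46 ± 0.063, 2.33e-05) were higher. PFKM, TIGAR, GAPDH and ENO2 were called with the empty vector and not with HOTAIR. The difference between the 2 line comparisons is the interaction given above, which passed the adjusted threshold for none of these 11 genes.

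A further list of 60 genes next to this pathway, covering further isozymes, gluconeogenesis, the pentose phosphate pathway, other sugar transporters and glycogen and galactose metabolism, had 44 genes in the table. None was called for HOTAIR in either line or for the interaction. In MCF10A 0 were higher and 1 lower at an unadjusted p under 0.05, the red cell enzyme BPGM (log2 fold change -0.37 ± 0.075, adjusted p = 0.228), against 4.41% and 2.88% of all genes. In DCIS.COM 4 were higher and 5 lower, against 9.08% and 8.41% of all genes. Between the lines 12 were called higher in DCIS.COM and 9 lower with the empty vector, and 14 and 10 with the HOTAIR vector, shares of 47.7% and 54.5% against 46.3% and 43.7% of all genes. The glucose transporter SLC2A6 had 1 or 2 reads in each MCF10A library and 524 to 798 in DCIS.COM. The sodium-coupled glucose transporter SLC5A1 had 0 to 6 reads in MCF10A and 836 to 1353 in DCIS.COM. HKDC1, a hexokinase domain gene, and PGM2L1, a phosphoglucomutase relative, were lower in DCIS.COM, with 5 to 7 reads against 112 to 144 and 41 to 49 against 396 to 641.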

How the data were processed

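As the authors describe, paired-end ScriptSeq v2 reads were mapped onto hg19 by Rsubread, assigned to UCSC knownGene models by featureCounts, and scaled by edgeR. The authors also tested for differing genes with edgeR. The deposited log2 CPM values cover 13771 genes, each above 0.5 CPM in at least 2 libraries. Strand use in counting, and how reads shared by several genes were assigned, are not given in the sources used here. Several members, such as PFKM, TPI1 and SLC16A3, also overlap genes on the opposite strand, whose part was not tested. The values held a shared prior of 0.0717 CPM, and 100% of the values under 10000 reads lay within 0.1 of a whole read. Groups followed the sample titles. Fold changes and p-values came from limma 3.58.1 in R 4.3.3 (4 group means, mean-variance trend, all 8 libraries sharing the spread), adjusted over all genes. The test was checked on simulated data. All analysed members were named, with statistics for genes called (between the lines mainly with the empty vector, and with the HOTAIR vector for genes called there alone), the 5 smallest p-values in each HOTAIR comparison and genes with an unadjusted p under 0.05 in both lines. Genes of the adjoining list were named only if called, at most 5 per comparison by size. BPGM was added after its value was seen, and PGAM4 for its overlap with PGK1. One gene of this list that the rule would name is not reported here. The members and lists were chosen with earlier results of these data known. Exon lengths, GC content and GRCh37 positions came from GENCODE release 44 and were known for 95.5% of genes, and RefSeq promoters for 35 of the members. The alternatives were median centring, quantile normalization, loess correction on GC content or length (span 0.4), log2(CPM + 1), a mean CPM of at least 2, no trend, limma-voom on the recovered reads, separate fits, the replicate number as a block, other fold thresholds and each library left out in turn. A lone library left in a group is assumed to vary like the others. Python 3.11.15 served for the rest. No per-sample column was left unused.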

Additional observations from a re-analysis of the deposited data

How the results depend on the processing

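Over 18 alternative fits, the 17 fold changes of genes with an unadjusted p under 0.05 in a HOTAIR comparison kept their direction in all 306 combinations. Most of these combinations could not turn it. No trend, separate fits, the block, the CPM filter and a library left out of the other line keep the fold change as it is. The groups did not overlap for these genes, so leaving out a library of the same line could not turn it either. The number called for HOTAIR in MCF10A thus ran from 0 to 2 with a library left out, that for the interaction from 0 to 25, and that in DCIS.COM remained 0. Without a fold threshold 28 and 31 genes were called between the lines, with the empty and the HOTAIR vector, and at a log2 fold change of at least 1.5 these were 4 and 3. The shares of all genes at these 2 settings are not given, so the counts describe the settings and not the set. The median in DCIS.COM was 0.07 under GC correction (0.0723). The median between the lines with the empty vector, -0.04 as reported, was 0.0506 under GC correction, 0.0189 under length correction and from -0.0403 to 0.0675 with a library left out. The replicate block left 0 genes called in both HOTAIR comparisons and the interaction, and 17 and 20 between the lines. Between libraries of the same number the correlations of their deviations over all genes ran from -0.016 to 0.0661. With 2 libraries a group this cannot show whether they shared a batch that moved some genes or some groups. The number of MCF10A genes higher at an unadjusted p under 0.05 was 9 as reported. It was 19 in separate fits, 16 with limma-voom, 13 with GC correction, 7 with the block and 6 with no trend. The number lower, 0 as reported, was 2 in separate fits and 1 with quantile normalization or GC correction. Both numbers also moved with a library left out, the former up or down. The shares of all genes in these fits are not given, and the cause was not tested. With 2 libraries a group, the spread of the DCIS.COM pCDH-empty pair limits every test. Depth limits ENO3, ENO2 and the overlapping genes most.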
